A study of Mus musculus with 8 samples.

Results

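Genes that drive or brake the cell division cycle were read in lymphatic and blood vascular endothelial cells of the mouse colon. The set has 36 genes, taken by symbol: 30 that act in DNA synthesis and mitosis, and 6 that act at the entry to the cycle, namely the 3 D cyclins and the 3 CDK inhibitors of the Cip/Kip family. Members were found by an exact match to probe sets with a single annotated gene symbol, which gave 86 probe sets for 35 of the 36 genes, out of 34945 probe sets for 18193 genes. Ccnb1 (cyclin B1) had no such probe set, so its signal was not analysed here and it enters only the promoter counts. The rule that takes the members uses symbols and no measured values.

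Lymphatic endothelial cells (LEC) and blood vascular endothelial cells (BEC) were sorted from the same 4 untreated, healthy C57BL/6J mice aged 8 weeks, 3 females (mice 1 to 3) and 1 male (mouse 4), giving 4 arrays of each cell type. Per the labels, digested colon was stained for CD31, podoplanin and CD45.2 and sorted into lysis buffer. No source used here states the sort gates. The RNA went through an amplification step before hybridisation, and the 4 pairs were selected by the submitters on the quality of their material. The cells came from whole opened colons, so each array averages many vessels, and fewer dividing cells cannot be told apart from less RNA per dividing cell.

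The cell cycle runs from growth (G1) through DNA synthesis (S) to mitosis (M). D cyclins with CDK4 or CDK6 start the passage out of G1 by phosphorylating the retinoblastoma protein, which frees E2F factors to induce the genes of DNA replication. Cyclins E, A and B with CDK2 and CDK1 then carry cells through S phase and mitosis. The inhibitors p21 (Cdkn1a), p27 (Cdkn1b) and p57 (Cdkn1c) hold these kinases back. Endothelium of adult vessels is known to be mostly quiescent, which means that its cells rest outside the cycle and can re-enter it.

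The arrays were read against a background level, which was for each array the 95th percentile over its 27 probe sets for transcripts of Bacillus subtilis. It lay between 3.83 and 4.88 (log2) on the LEC arrays and between 3.43 and 4.52 on the BEC arrays. Between 56.9% and 66.8% of all genes exceeded it on the LEC arrays and between 57.5% and 68.6% on the BEC arrays. LEC of mouse 1 stood apart, with a median Spearman correlation of 0.603 with the other LEC arrays, against 0.744 to 0.746 for those and 0.731 to 0.816 among BEC. The sorted cells carried the markers of their labels, since 6 of 6 tested lymphatic markers were higher in LEC and 7 of 8 blood vascular markers were lower in LEC by the fit described below. Pdpn, among the 6, encodes podoplanin, for which the cells were stained before the sort. All 7 pan-endothelial markers exceeded background on all 4 arrays of each cell type. Of these 7, Esam and Cdh5 were called lower in LEC (LEC minus BEC, log2: -3.55 and -1.18). The others also had negative differences, not called. Both groups also carried signal of other cell types, and colon epithelial markers varied most. The summed linear signal of 14 epithelial markers ran from 407 to 10466 in LEC, highest in mouse 3, and from 665 to 22183 in BEC, also highest in mouse 3, and none of the 14 was called. For 8 markers of the crypt base and transit-amplifying epithelium, which divides, the sum ran from 193 to 486 in LEC and from 292 to 963 in BEC. None of the 4 that were tested was called. Slc12a2 and Axin2 had negative differences (LEC minus BEC, log2) of -1.86 and -2.18, and Sox9 and Smoc2 positive ones of 1.00 and 1.08. Slc12a2 was the brightest of the 8 on each BEC array, and Lgr5, Ascl2, Olfm4 and Cdca7 lay too low for the test. The sum of 8 fibroblast markers ran from 372 to 7324 in LEC, highest in mice 2 and 4, and from 207 to 390 in BEC, with none called. The sum of 8 pericyte and smooth muscle markers ran from 127 to 294 in LEC and from 829 to 1519 in BEC. Of the 5 that were tested 1, the pericyte gene Rgs5, was called lower in LEC, and it was the brightest of the 8 on each BEC array. Acta2, Myh11 and Tagln had negative differences that were not called. Pdgfrb, also a pericyte gene, went the other way in 4 of 4 mice (difference 1.81, not called). The part of these cells in the signals of the cell cycle genes was not tested. In 11 leukocyte markers the sum ran from 129 to 878 in LEC and from 145 to 483 in BEC, also with none called. It was highest in mouse 1 in both cell types. Ptprc (CD45) exceeded background on 1 of 4 LEC arrays and 2 of 4 BEC arrays. Cd3e did so on 0 of 4 LEC arrays and 2 of 4 BEC arrays, and Lyz2 on 4 of 4 and 3 of 4. Laptm5 did so on 3 of 4 LEC arrays and 4 of 4 BEC arrays, with up to 8.92 in LEC and 7.99 in BEC.

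The member genes divided by role in how often they exceeded background, read here and below on the brightest probe set of each gene unless others are named. On all 8 arrays 5 of the 10 DNA synthesis genes, 1 of the 3 E and A cyclins, 0 of the 16 mitosis genes and 5 of the 6 D cyclins and CDK inhibitors did so. In all this was 11 of 35 genes (31.4%), against 32.8% of all genes. Taken by cell type, 2 of 16 mitosis genes (Mki67 and Cdc20) exceeded background on all 4 LEC arrays, where 38.9% of all genes did, and 1 of 16 (Aurka) on all 4 BEC arrays, where 45% of all genes did. The D cyclins and CDK inhibitors did so for 5 of 6 genes in LEC and 6 of 6 in BEC. The exception was Cdkn1c in LEC of mouse 1. Counting any probe set of a gene, 6 of 10 DNA synthesis genes (Mcm7 added) and again 0 of 16 mitosis genes had a probe set above background on all 8 arrays. A value under background is no proof that the transcript is absent, and levels of different probe sets were not compared with each other.

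**Figure D1:**
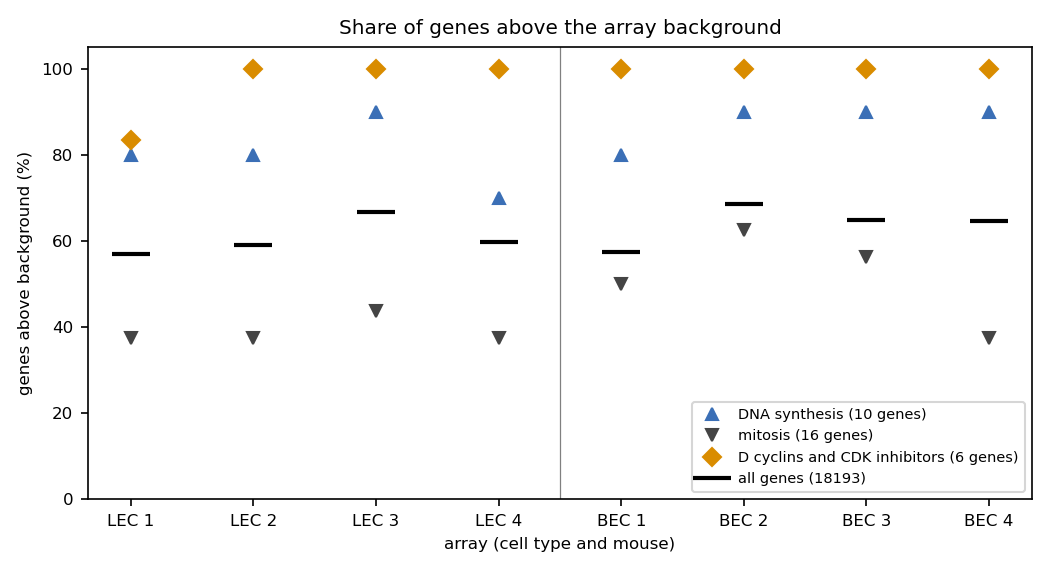
Share of genes above the background level (y axis, percent) on each array (x axis, 4 LEC arrays and then 4 BEC arrays, by mouse) for 10 DNA synthesis genes, 16 mitosis genes and 6 D cyclins and CDK inhibitors, with bars for all 18193 genes. The mitosis genes lie between 37.5% and 43.8% in LEC and between 37.5% and 62.5% in BEC, under the bar of all genes on each array, and the DNA synthesis genes lie between 70% and 90% on all arrays.

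The mitosis genes also shared letters in their promoters. Progression genes of mitosis are classically bound by the trimeric factor NF-Y at CCAAT boxes and, at the element called CHR, by a MuvB complex that represses them in resting cells and activates them with B-MYB in dividing ones. RefSeq promoter windows of GRCm38.p6 (250 bases before to 50 after the start) were held for 28 of the 36 genes, 15 of them mitosis genes. CCAAT was searched on both strands, as were the CHR forms TTTGAA and TTTAAA, and CCAAT and CHR can overlap only by shared T or A letters. A CCAAT box was about as frequent in DNA synthesis genes (8 of 9) as in mitosis genes (14 of 15), against 41.1% of all genes. A CHR form was found in 14 of 15 mitosis genes and 3 of 9 DNA synthesis genes, against 30.6% of all genes. Both a CCAAT box and a CHR form were found in 13 of 15 mitosis genes (86.7%), 3 of 9 DNA synthesis genes (33.3%) and 1 of 3 D cyclins and CDK inhibitors (Cdkn1b), against 12.2% of 27025 genes with windows of that length. E2F sites (TTTCCCGC, TTTCGCGC, TTTGCCGC or TTTGGCGC, both strands, which can overlap each other) were found in 4 of 9 DNA synthesis genes (44.4%) and 1 of 15 mitosis genes (6.67%), against 2.6% of all genes. A match is a description of letters and does not show binding.

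The 150 bases before the start are shown for 4 mitosis genes, because this role had no gene above background on all arrays. They are also shown for Mcm6, a DNA synthesis gene above background on all arrays. Mcm6 had the most E2F sites of the members with a window (3). Of the other DNA synthesis genes above background on all arrays, Mcm3 had 2, Pcna and Rrm1 had 0, and Mcm4 had no window. Cdkn1a has 2 windows, and neither held a CCAAT box, a CHR form or an E2F site. Its distal window is shown, which held 2 p53 decamers, where the other window held 0. Capitals mark CCAAT or its complement ATTGG, the CHR forms or their complements, E2F sites, and in Cdkn1a the p53 decamer. Mki67 is at chr7:135716380-135716529, minus strand, Top2a at chr11:99024190-99024339, minus strand, Ccnb2 at chr9:70421555-70421704, minus strand, Cdk1 at chr10:69352913-69353062, minus strand, Mcm6 at chr1:128359706-128359855, minus strand, and Cdkn1a at chr17:29090829-29090978, plus strand (all GRCm38.p6, from RefSeq).
Mki67: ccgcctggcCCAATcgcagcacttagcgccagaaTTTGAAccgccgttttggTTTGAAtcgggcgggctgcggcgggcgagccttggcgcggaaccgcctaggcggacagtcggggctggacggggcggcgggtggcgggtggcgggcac
Top2a: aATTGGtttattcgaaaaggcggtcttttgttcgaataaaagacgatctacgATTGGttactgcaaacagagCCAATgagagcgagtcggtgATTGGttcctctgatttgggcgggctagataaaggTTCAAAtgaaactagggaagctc
Ccnb2: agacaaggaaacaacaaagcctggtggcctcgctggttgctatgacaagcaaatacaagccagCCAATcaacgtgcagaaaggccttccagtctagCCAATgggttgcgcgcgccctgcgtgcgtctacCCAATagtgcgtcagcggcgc
Cdk1: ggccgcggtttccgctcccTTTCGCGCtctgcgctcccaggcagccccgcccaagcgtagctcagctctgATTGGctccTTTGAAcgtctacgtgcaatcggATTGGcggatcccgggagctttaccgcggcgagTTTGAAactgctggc
Mcm6: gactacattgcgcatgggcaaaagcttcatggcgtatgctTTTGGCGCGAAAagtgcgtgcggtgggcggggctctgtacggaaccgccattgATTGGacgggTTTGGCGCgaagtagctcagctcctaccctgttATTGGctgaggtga
Cdkn1a: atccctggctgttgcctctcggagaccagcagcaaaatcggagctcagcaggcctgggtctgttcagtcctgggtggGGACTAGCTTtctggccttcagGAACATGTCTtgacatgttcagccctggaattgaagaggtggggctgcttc

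In the stretches shown Top2a had 4 CCAAT boxes and 1 CHR form, Ccnb2 had 3 CCAAT boxes, and Cdk1 had 2 CCAAT boxes, 2 CHR forms and 1 E2F site. Mki67 had 1 CCAAT box and 2 CHR forms. Mcm6 had 2 CCAAT boxes and 3 E2F sites, with 2 of these overlapping. The Cdkn1a stretch held 2 p53 decamers, a sequence found in the windows of 9.55% of all genes and of 4 of the 28 members with a window.

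LEC and BEC were then compared gene by gene with limma, on the brightest probe set of each gene, and p-values received the Benjamini-Hochberg adjustment across the 13259 genes that passed a filter on dim probe sets. Of the 35 members, 29 passed: all 10 DNA synthesis genes, 2 of 3 E and A cyclins, 11 of 16 mitosis genes and all 6 D cyclins and CDK inhibitors. Ccne2, Ccnb2, Aurkb, Plk1, Birc5 and Ube2c did not. Of the 29 tested members 0 were called higher and 0 lower in LEC at an adjusted p under 0.05 (smallest adjusted p = 0.122, for Cdkn1a), where the same fit called 4.07% of all genes, 1.76% higher and 2.31% lower. At an unadjusted p under 0.05 there were 3 members, Mki67 with a positive difference and Mcm3 and Cdkn1a with negative ones, which is 10.3% of those tested, against 14.4% of all genes. No member had LEC and BEC values that did not overlap, whereas 5.19% of tested genes lay entirely higher and 5.19% entirely lower in LEC. The members' fitted differences (LEC minus BEC, log2) had a median of -0.06 over the 23 tested S and M phase genes and -0.35 over the 6 D cyclins and CDK inhibitors, against 0.08 over all genes tested. Without LEC of mouse 1 these medians were -0.08 and -0.14, and without both arrays of mouse 3 they were -0.03 and 0.18, with no member called in either case. Leaving out LEC of mouse 3 alone brought 1 member past the threshold, Cdkn1a, described below.

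**Figure D2:**
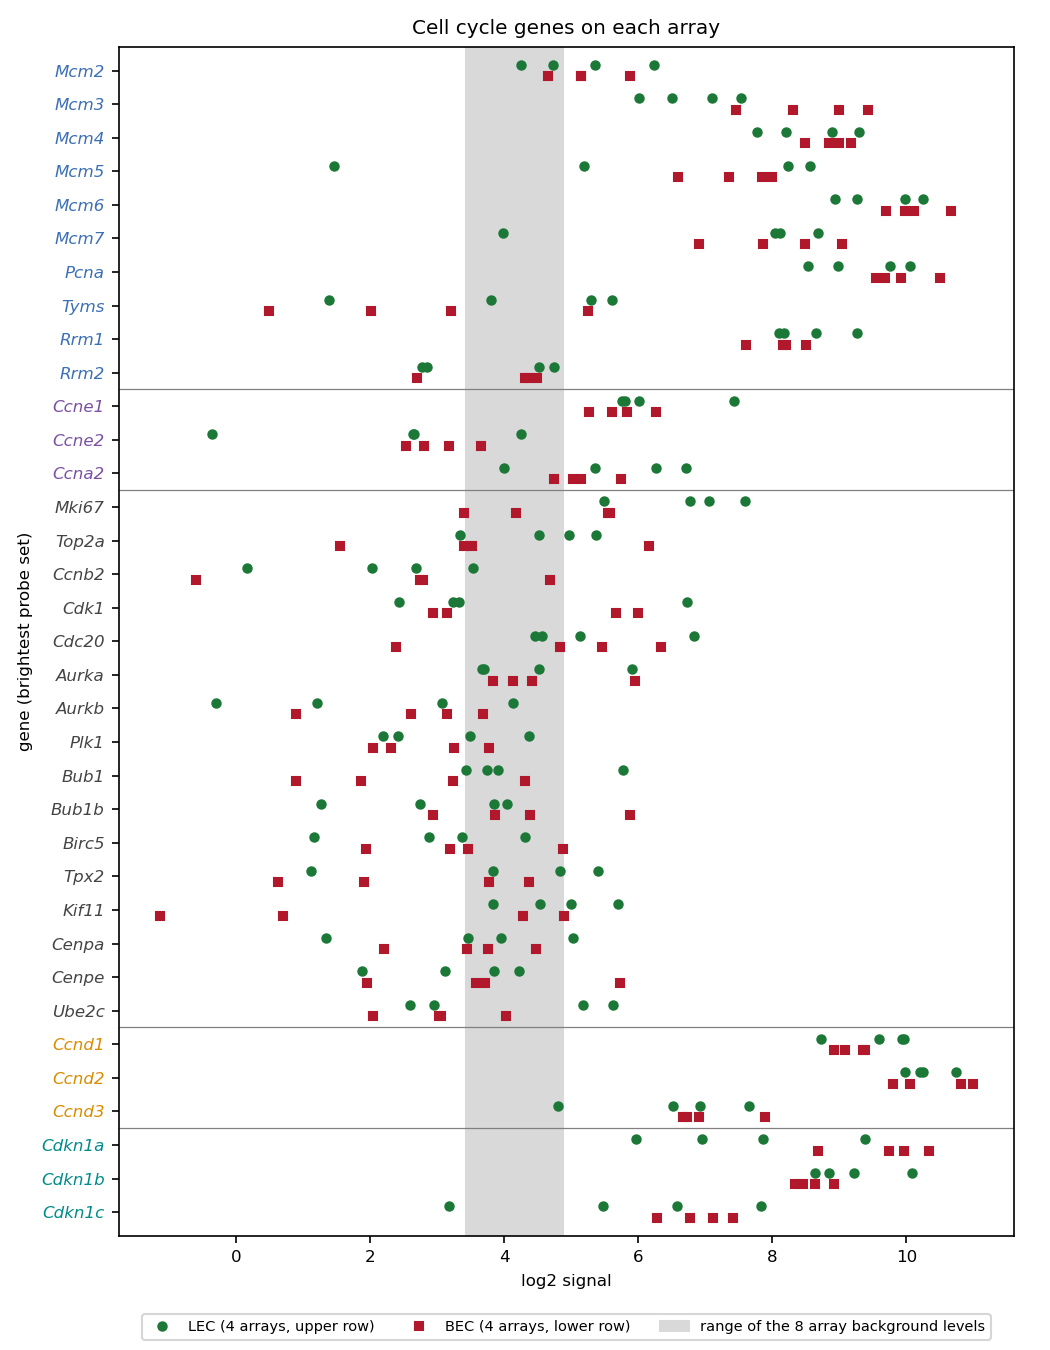
Log2 signal (x axis) of the brightest probe set of each of 35 cell cycle genes (y axis, coloured by role) on the 4 LEC arrays (circles, upper row of each gene) and the 4 BEC arrays (squares, lower row), with the range of the 8 background levels, 3.43 to 4.88, shaded. The mitosis genes cluster on and near the shaded band, and the D cyclins lie right of it except for Ccnd3 in LEC of mouse 3 (4.79), which is inside it, and in each gene the LEC and BEC points overlap.

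Among the genes of DNA synthesis, the MCM proteins form the ring helicase that opens DNA at the replication fork. Mcm3, a subunit of that ring, had log2 signals of 6.01, 6.50, 7.10 and 7.54 in LEC of mice 1 to 4, against 9.42, 7.46, 8.31 and 8.99 in BEC. Each LEC value lay under the BEC value of its mouse, and the ranges overlapped only between LEC of mouse 4 and BEC of mouse 2. The fitted difference was -1.76 ± 0.61 (standard error, 4 arrays each; limma, adjusted p = 0.162, 95% interval -3.07 to -0.45), so the gene was not called. Of its 5 tested probe sets, 4 had negative differences (-2.14 to -1.18) and 1, among the dimmer ones, had 1.25.

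The other MCM genes had fitted differences between -1.58 and -0.06 on their brightest probe sets. Dimmer tested probe sets went both ways. They had 1.06 for Mcm4, 1.19 and -1.77 for Mcm6, 1.83, -0.57 and -0.90 for Mcm7, and -0.36 for Mcm2. Mcm6 had 8.94, 9.98, 10.25 and 9.27 in LEC, against 9.70, 10.12, 9.99 and 10.66 in BEC, with values of both cell types mixed (difference -0.51 ± 0.41, adjusted p = 0.653). Mcm4 averaged 8.54 ± 0.68 in LEC and 8.88 ± 0.29 in BEC (SD, n = 4 each). Mcm2 averaged 5.14 ± 0.85 in LEC and 5.21 ± 0.50 in BEC. Mcm5 spread most, from 1.47 in mouse 1 to 8.57 in mouse 3 in LEC, against 6.59 to 8.00 in BEC, and its difference was -1.58 with all arrays and -0.12 without LEC of mouse 1. Mcm7 had 8.68, 8.04 and 8.12 in LEC of mice 1 to 3 and 3.97, under background, in LEC of mouse 4, against 6.91 to 9.05 in BEC. Its other 3 probe sets were above background in LEC of mouse 4, at 5.06, 5.71 and 5.02.

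Pcna, the sliding clamp of DNA polymerases, had 10.06, 8.97, 9.76 and 8.53 in LEC, against 9.68, 10.50, 9.55 and 9.92 in BEC. All 8 values lay well above background and the groups overlapped (difference -0.58 ± 0.44, adjusted p = 0.629, 95% interval -1.53 to 0.37). Rrm1 and Rrm2 encode the large and small subunits of ribonucleotide reductase, which makes deoxynucleotides. Rrm1 had 8.17, 8.65, 8.10 and 9.27 in LEC, against 8.21, 7.61, 8.51 and 8.16 in BEC (difference 0.43 ± 0.49, adjusted p = 0.771). Rrm2 exceeded background on 1 of 4 LEC arrays and 2 of 4 BEC arrays, although Rrm1 did on all 8. Tyms, thymidylate synthase, exceeded it on 2 of 4 LEC arrays and 1 of 4 BEC arrays, with 1.39 to 5.61 in LEC and 0.49 to 5.25 in BEC. Over all 4 of its probe sets it did so on 3 of 4 LEC arrays and 3 of 4 BEC arrays.

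Of the cyclins that act at the start of S phase and in it, Ccne1 (cyclin E1) was above background on all arrays, with 7.43, 5.76, 5.80 and 6.02 in LEC, against 6.26, 5.61, 5.26 and 5.84 in BEC. The LEC value was above the BEC value in each mouse, by amounts of which the largest was that of mouse 1, and the difference of 0.51 ± 0.67 was not called (adjusted p = 0.81). Same-sign differences in all 4 mice towards LEC were seen in 14.3% of all tested genes, and among members also for Tyms and Kif11. Ccna2 (cyclin A2), needed in S phase and at the onset of mitosis, had 6.71, 5.35, 6.27 and 3.99 in LEC, against 5.73, 5.03, 4.74 and 5.15 in BEC, under background only in LEC of mouse 4. Ccne2 exceeded background on 0 of 4 LEC arrays and 1 of 4 BEC arrays.

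Mki67, whose protein Ki-67 coats mitotic chromosomes and serves as the standard stain for cycling cells, exceeded background on all 4 LEC arrays. It had 7.60, 7.05, 6.78 and 5.48 in LEC of mice 1 to 4, against 5.55, 4.17, 3.41 and 5.58 in BEC. In the 3 female mice the LEC value lay above the BEC value, and in the male mouse the values of the cell types were nearly equal. The difference was 2.05 ± 0.78 on the log2 scale, 4.15-fold, with a 95% interval of 0.38 to 3.73, and it was not called (adjusted p = 0.215). It stayed positive under all 21 alternatives run (1.61 to 2.77), with adjusted p-values between 0.129 and 0.511. Mki67 has 1 probe set on the array, so no further probe set could be set beside it, and with 1 male the sex and the mouse cannot be told apart.

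**Figure D3:**
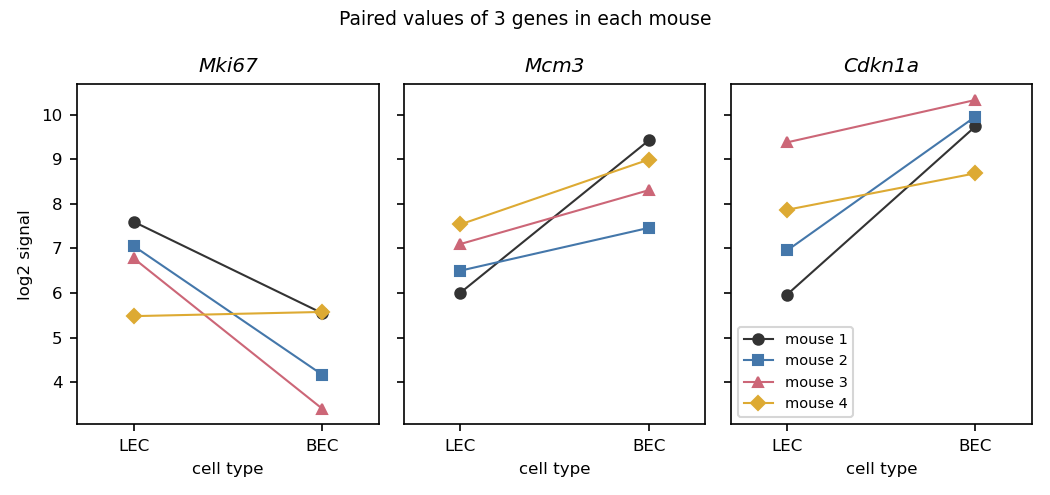
Log2 signal (y axis) of Mki67, Mcm3 and Cdkn1a in LEC and BEC (x axis), with a line for each of the 4 mice. The Mki67 lines of mice 1 to 3 have their upper end in LEC, that of mouse 4 is nearly level (5.48 in LEC and 5.58 in BEC), and for Mcm3 and Cdkn1a each of the 4 lines has its lower end in LEC.

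The values of other mitosis genes varied from mouse to mouse within each cell type. Top2a, the topoisomerase that untangles replicated chromosomes, had 4.52, 4.97, 3.34 and 5.37 in LEC, against 6.16, 3.41, 3.52 and 1.54 in BEC, above background on 2 of 4 arrays of each. Cdk1, the kinase that drives entry to mitosis, had 6.73, 2.43, 3.33 and 3.23 in LEC, against 5.99, 5.67, 3.15 and 2.94 in BEC. It exceeded background in LEC of mouse 1 and in BEC of mice 1 and 2. Cdc20, an activator of the anaphase-promoting complex, had 6.84, 4.56, 4.46 and 5.13 in LEC, against 6.33, 5.46, 2.38 and 4.83 in BEC (difference 0.50 ± 0.95, adjusted p = 0.882). Mouse 1 had the highest value of its cell type for both Cdk1 and Cdc20, in LEC and in BEC. Its arrays also had the highest background (4.88 in LEC and 4.52 in BEC) and median signal (4.75 and 4.40) of their cell types. Whether this bears on the values of the 2 genes was not tested.

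Kif11, the motor that pushes spindle poles apart, had 5.70, 4.54, 3.83 and 4.99 in LEC, against 4.89, 4.28, -1.14 and 0.69 in BEC. Its LEC value was the higher in each mouse, but 2 BEC values and 1 LEC value lay under background, and raising these to background left a difference of 0.76 in place of 2.58 (adjusted p = 0.51 and 0.395). Bub1 and Bub1b act in the spindle checkpoint. Bub1 exceeded background on 1 of 4 LEC arrays and 0 of 4 BEC arrays, and Bub1b on 0 of 4 LEC arrays and 3 of 4 BEC arrays, with fitted differences of 1.64 and -1.29 that were not called (adjusted p = 0.525 and 0.635). A dimmer probe set of Bub1b was above background in LEC of mouse 2, at 5.62. Aurka, the spindle pole kinase, had 5.91, 3.67, 3.69 and 4.52 in LEC, against 5.94, 3.83, 4.13 and 4.42 in BEC, a difference of -0.13 ± 0.85. Its other probe set had 5.34, 4.27, 4.05 and 4.38 in LEC, against 1.66, 1.70, 3.29 and 4.25 in BEC, a difference of 1.78 that was not called either (adjusted p = 0.458 over all probe sets). Tpx2, the activator of that kinase, exceeded background on 2 of 4 arrays of each cell type. The centromere genes Cenpa and Cenpe each exceeded it on 1 of 4 LEC arrays and 3 of 4 BEC arrays.

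The remaining mitosis genes lay too low for the test. Ccnb2 (cyclin B2) had 2.69, 3.54, 0.16 and 2.02 in LEC, against -0.59, 2.74, 4.69 and 2.78 in BEC, above background only in BEC of mouse 3. Aurkb, the kinase of the chromosomal passenger complex, exceeded background on 0 of 4 LEC arrays and 1 of 4 BEC arrays, and its partner Birc5 (survivin) on 1 of 4 LEC arrays and 2 of 4 BEC arrays. Plk1, a kinase needed throughout mitosis, did so on 1 of 4 arrays of each cell type. Ube2c, the ubiquitin-conjugating enzyme of the anaphase-promoting complex, did so on 2 of 4 LEC arrays and 1 of 4 BEC arrays, at 5.62 and 5.18 in LEC of mice 2 and 4.

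The D cyclins lay above background on all 8 arrays, and the values of the cell types overlapped. Ccnd2 had 9.98, 10.74, 10.25 and 10.20 in LEC, against 9.80, 10.82, 11.00 and 10.05 in BEC. Values of the groups were fully mixed, and the difference was -0.12 ± 0.37 with a 95% interval of -0.92 to 0.68, which lies within a 2-fold change either way (adjusted p = 0.93). It was the only member whose interval did so, and 290 of the 13259 tested genes had one that narrow. All 7 tested probe sets of Ccnd2 had negative differences, from -1.41 to -0.10. Each dimmer one had a 95% interval that reached beyond a 2-fold change, for example -2.23 to 0.85 and -1.49 to 0.65. Ccnd1 had 9.94, 9.96, 8.73 and 9.59 in LEC, against 9.36, 8.92, 9.08 and 9.39 in BEC (difference 0.37 ± 0.42, adjusted p = 0.769, 95% interval -0.54 to 1.27). Ccnd3 had 6.52, 6.91, 4.79 and 7.66 in LEC, against 6.66, 6.91, 7.90 and 6.72 in BEC, low in LEC of mouse 3 (difference -0.58 ± 0.71, adjusted p = 0.791). Its dimmer tested probe set had 1.72.

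Among the CDK inhibitors Cdkn1a had the difference furthest from 0. Cdkn1a encodes p21, a target of p53 that is induced by stress and in differentiating cells. It had 5.97, 6.95, 9.38 and 7.87 in LEC, against 9.74, 9.96, 10.33 and 8.69 in BEC. Each LEC value lay under the BEC value of its mouse, and the groups overlapped only because LEC of mouse 3 exceeded BEC of mouse 4. The difference was -2.14 ± 0.68, 4.40-fold, with a 95% interval of -3.61 to -0.66, and it missed the threshold (adjusted p = 0.122). Without LEC of mouse 3 it was -2.75 and called (adjusted p = 0.0266), and over all 21 alternatives it ran from -2.75 to -1.61 (adjusted p up to 0.284). Mouse 3 also had the highest summed epithelial marker signal in both cell types, and without both of its arrays the difference was -2.53 (adjusted p = 0.0938). Whether epithelial RNA had a part in the Cdkn1a signal was not tested. The dimmer probe set of Cdkn1a had a difference of -1.17.

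Cdkn1b and Cdkn1c were not called either. Cdkn1b, which encodes p27, had 8.84, 8.63, 9.22 and 10.09 in LEC, against 8.46, 8.93, 8.64 and 8.34 in BEC, with the LEC value above the BEC value in 3 of 4 mice (difference 0.60 ± 0.46, adjusted p = 0.629, 95% interval -0.39 to 1.59), with 0.47 for its other probe set. Cdkn1c, which encodes p57 and is an imprinted gene, had 3.18, 5.47, 6.57 and 7.84 in LEC, against 6.78, 7.11, 6.28 and 7.41 in BEC. The LEC values were spread far wider than those of BEC, and the difference was -1.13 with all arrays and -0.27 without LEC of mouse 1 (adjusted p = 0.647 and 0.928).

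**Figure D4:**
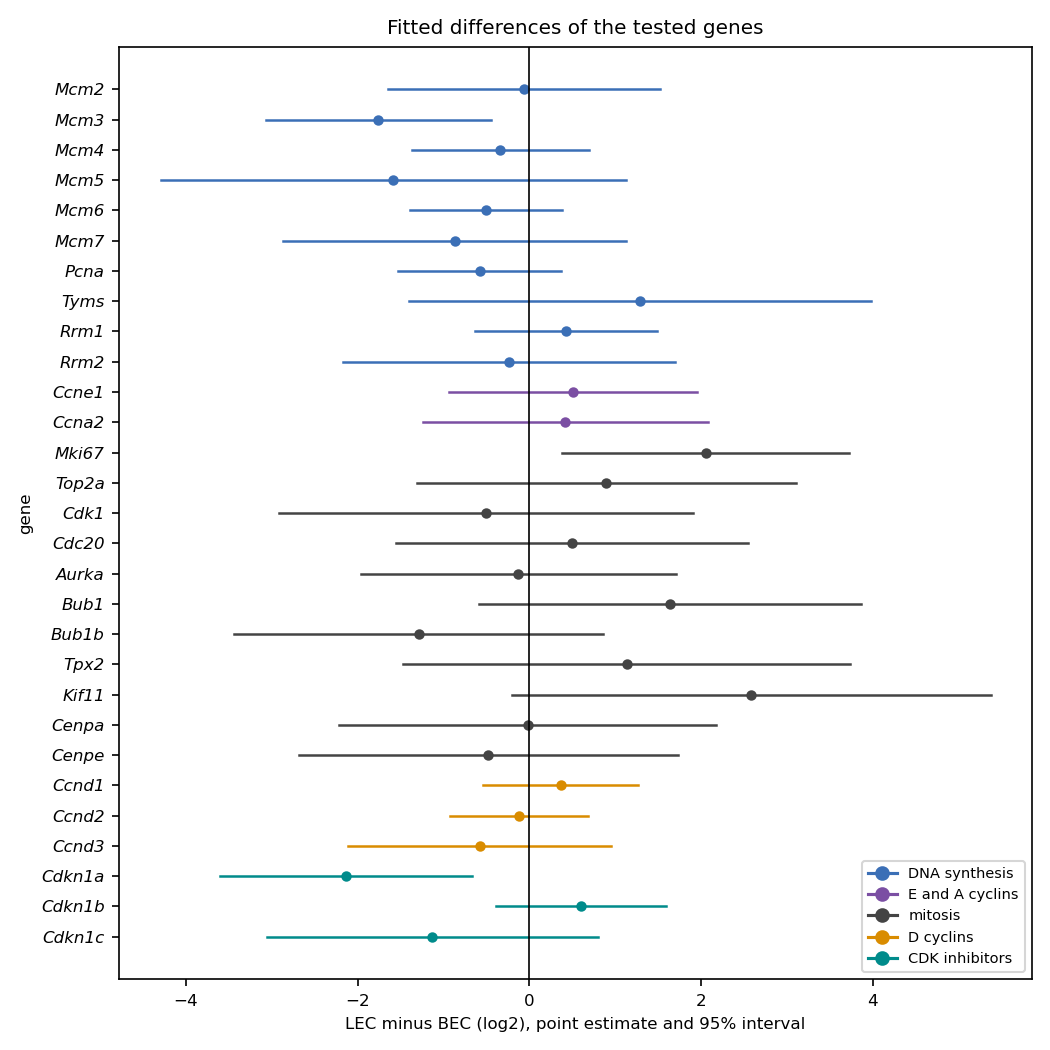
Fitted LEC minus BEC difference (x axis, log2) of the 29 tested genes (y axis, coloured by role), with points for estimates and lines for 95% intervals. The intervals of Mki67 (0.38 to 3.73), Mcm3 (-3.07 to -0.45) and Cdkn1a (-3.61 to -0.66) leave out 0 before adjustment, and those of the mitosis genes are mostly wider than those of the D cyclins.

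The width of these intervals sets what the arrays could show. For 10 of the 29 tested members the interval lay within a 4-fold change either way, 5 of 10 DNA synthesis genes, 1 of 2 cyclins (Ccne1), 1 of 11 mitosis genes (Aurka), 2 of 3 D cyclins and 1 of 3 CDK inhibitors. This was 34.5% of the members and 27.3% of all tested genes. For the other 19 members a 4-fold difference was within the interval in at least 1 direction, so that a missed threshold does not show equal levels.

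Probe sets of the same gene did not always give the same sign. The fit over 23980 probe sets included 61 of the 86 member probe sets and called 0 of them, where it called 3.7% of all, and 3 of the 61 had an unadjusted p under 0.05, where 13.6% of all did. Of the 19 members with more than 1 tested probe set, 9 had differences of both signs: Aurka, Ccnd1, Ccnd3, Mcm3, Mcm4, Mcm6, Mcm7, Rrm2 and Top2a. The tested probe sets of Mcm7 ran from -0.90 to 1.83. All tested probe sets of Cdkn1a, Ccnd2, Cenpa and Mcm2 were negative and all of Cdkn1b, Tyms, Tpx2, Cdc20, Ccne1 and Rrm1 positive.

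**Figure D5:**
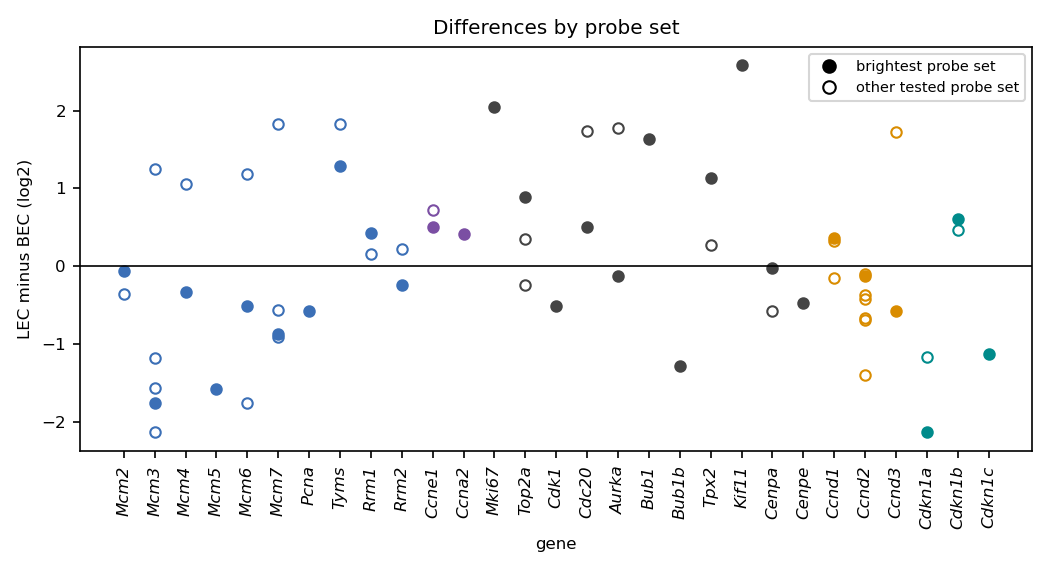
LEC minus BEC difference (y axis, log2) of each tested probe set of the 29 genes (x axis, coloured by role), with filled points for the brightest probe set of a gene and open points for its others. Points of both signs occur for 9 of the 19 genes with more than 1 tested probe set, and the 7 points of Ccnd2 lie between -1.41 and -0.10.

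Further genes of the pathway were read from a list of 119, of which 116 had a probe set and 99 were tested. Of these 0 were called higher and 1 lower in LEC, and at an unadjusted p under 0.05 there were 6 in each direction, where 6.98% of all genes stood higher and 7.42% lower. The median difference was -0.10. The called gene was Kif23, a kinesin of the central spindle in cytokinesis, with 2.18, -0.49, 3.48 and 1.18 in LEC, against 5.85, 5.00, 6.14 and 5.75 in BEC. All 4 LEC values lay under background and under the 40th percentile of their arrays, and all 4 BEC values lay above background. Kif23 thus passed the filter on dim probe sets through its BEC values alone. Its call as lower in LEC rests on LEC values under background (limma on the deposited values, adjusted p = 0.0322). With values raised to background the group means differed by 2.69-fold, a point estimate and no lower limit, and the adjusted p was 0.226. The call was also lost when any 1 array other than LEC of mouse 1 or mouse 3 was left out (adjusted p up to 0.108). Averaged over its probe sets the difference was -1.73 (adjusted p = 0.38).

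By role, none of the 7 tested G1 kinases and partners, 11 pocket protein and E2F genes, 5 DREAM and MYB-MuvB genes, 22 replication genes and 3 further CDK inhibitors was called, with medians of 0.16, -0.35, -0.69, -0.02 and 0.75. Of the 26 mitotic genes Kif23 was called (median 0.54), and of the 5 growth-inducing factors and p27 degraders none was (median 0.70). Of the 20 tested p53 and growth arrest genes none was called (median -0.29), and 17 of the 21 with a probe set exceeded background on all 4 LEC arrays, as many as on all 4 BEC arrays. Genes close to the threshold, named after their values were seen, were Ccng2, an atypical cyclin linked to cell cycle arrest, Klf2, the flow-induced transcription factor of endothelium, and Myc, the growth-inducing transcription factor. Ccng2 had 7.34, 6.08, 5.46 and 5.38 in LEC, against 9.08, 8.26, 8.58 and 7.86 in BEC (difference -2.38 ± 0.62, adjusted p = 0.0505), with no overlap. Klf2 had 7.18, 6.94, 7.57 and 7.51 in LEC, against 9.06, 8.43, 9.37 and 9.65 in BEC (difference -1.83 ± 0.49, adjusted p = 0.056), also with no overlap. Myc had 9.59, 6.36, 7.40 and 6.80 in LEC, against 3.58, 3.76, 4.94 and 6.30 in BEC (difference 2.89 ± 0.87, adjusted p = 0.0949), with the LEC value the higher in each mouse.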

How the data were processed

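RNA of sorted cells was measured on 8 single-colour arrays, 4 of LEC and 4 of BEC, grouped by title. The deposited values are log2 signals per probe set, made by the authors with MAS5, per the submitters' processing notes. No source used here names the version. That each array was scaled to a common trimmed mean was read from the values.

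Of 45101 probe sets in the table, 64 were controls and did not enter the tests. The platform annotation gave 1 symbol for 34945 (34741 matched through the gene number to RefSeq symbols of GRCm38.p6), several for 932 and none for 9160. The probe set with the highest mean stood for a gene and entered the test if 4 or more of its 8 values were above the 40th percentile of all probe sets on the same array. For the resulting 13259 genes limma 3.58.1 was run under R 4.3.3 (lmFit, eBayes with an intensity trend, cell type alone), two-sided, adjusted by Benjamini and Hochberg and called under 0.05. The fit was tested on simulated data.

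LEC and BEC of 1 number come from 1 mouse, per the series design; same-mouse correlations of deviations from group means were 0.142, 0.0776, 0.181 and 0.0510. P-values measure the spread between mice together with amplification and array. Alternatives were the mouse as a block, 3 scalings, 3 filters, values raised to background, no intensity trend and array weights. Further ones were probe set means, female mice, each array left out and, added after the data were seen, both arrays of mouse 3 left out. Members, lists and tests were chosen with earlier results of these data known. All 36 members are named, and of the 119 further pathway genes those called, at most 10 in each direction, and in addition 3 close to the threshold that were chosen after their values were seen.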

Additional observations from a re-analysis of the deposited data

Results flagged for a closer look

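For 3 of 70 groups of 4 arrays (35 genes in 2 cell types) 1 array lay far from the other 3, by a gap over range above Dixon's 95% critical value, which chance passes in about 1 in 20 groups. Mcm7 had 3.97 in LEC of mouse 4, against 8.04 to 8.68 on the other 3 LEC arrays, on its brightest probe set. On its other 3 probe sets LEC of mouse 4 had 5.02, against 7.16 to 8.37, then 5.71, against 6.24 to 7.45, and 5.06, against 4.62 to 6.28. Rrm2 had 2.70 in BEC of mouse 2, against 4.30 to 4.49 on the other 3 BEC arrays, and is a gene near background. Ccne1 had 7.43 in LEC of mouse 1, against 5.76 to 6.02 on the other 3 LEC arrays. The 3 values came from 3 different mice.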

How the results depend on the processing

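No member gene was called higher in LEC under any of the 21 alternatives, and 1 was called lower under 1 of them, Cdkn1a without LEC of mouse 3 (difference -2.75, adjusted p = 0.0266), also as 1 of the member probe sets. Leaving out 1 array at a time gave 0 to 1 member genes and 0 to 1 member probe sets lower, 0 to 2 other pathway genes lower, 156 to 227 genes higher and 180 to 329 lower over all genes, an S and M phase median of -0.12 to 0.18 and a D cyclin and CDK inhibitor median of -0.53 to -0.06. The number of genes lower was 180 without BEC of mouse 2 and 200 without BEC of mouse 4. Scaling moved directions of small differences: the median over all genes was 0.08 as deposited, -0.20 with equal array medians, -0.02 with quantile normalization and -0.31 with equal hybridisation controls, and the S and M phase median was -0.34, -0.27 and -0.45 in these settings. With equal hybridisation controls the D cyclin and CDK inhibitor median was -0.74 and 123 genes were called higher. The S and M phase median was -0.20 with the stricter filter and 0.24 with values raised to background. The other pathway genes called lower were 2 with equal array medians, equal hybridisation controls, the background filter or array weights (Kif23 and Ccng2) and with the stricter filter (Ccng2 and Klf2), and 0 in female mice and without both arrays of mouse 3. Female mice alone gave 116 genes higher and 152 lower. Without both arrays of mouse 3, an alternative added after seeing the data, the D cyclin and CDK inhibitor median was 0.18. With the mouse as a replicate block 236 genes were called higher and 298 lower, and the block changed no call among members (0 higher, 0 lower; adjusted p = 0.104 for Cdkn1a, 0.18 for Mcm3 and 0.224 for Mki67). The causes of these shifts were not tested, beyond the smaller number of arrays where some were left out. Of the 16 mitosis genes, 0 were above background on all 8 arrays. Whether low signal or the number of arrays bears on the lack of calls was not tested.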
